A study of Mus musculus with 6 samples.

Results

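The genes described here encode enzymes that make and break down leukotrienes and prostaglandins or, for Alox5ap, a membrane partner of such an enzyme. They are Alox5, Alox5ap, Lta4h, Ltc4s, Dpep2, Ggt5, Pla2g4a, Ptgs1, Ptgs2 and Hpgd. Rows of the array table annotated with exactly 1 of these symbols were taken. Where a gene had several rows, the row followed was chosen by its mean signal over all 6 arrays, the brightest being kept. This gave 12 rows for 9 of the 10 genes, out of 22180 genes with a row of their own, and Ptgs1 was not analysed here. The 10 genes were named as a pathway with earlier results of these data known, so their selection is not independent of the comparison.

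The arrays came from a mouse acute myeloid leukaemia line, PU.1low URE-/-, established from a URE-/- mouse that had reached the leukaemic stage. URE is the upstream regulatory element, an enhancer of Spi1, the gene of the ETS transcription factor PU.1. Vehicle cells received water and treated cells the PU.1 inhibitor DB2313 at 330 nM, both for 24 h, with 3 arrays per group labelled as biological replicates. Both groups carry the URE deletion, both grew in the same cytokine-containing medium, and no cells with normal PU.1 were compared. Whether the replicates were separately started cultures is not stated, and p-values then measure only the spread between these samples, which may be technical.

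Arachidonic acid is cut from membrane phospholipid by cytosolic phospholipase A2 (Pla2g4a). One branch begins with 5-lipoxygenase (Alox5), which works with its membrane partner FLAP (Alox5ap) to give leukotriene A4. Lta4h turns that product into leukotriene B4, a chemoattractant of neutrophils, whereas Ltc4s joins it to glutathione to give leukotriene C4. Outside the cell, gamma-glutamyl transferase 5 (Ggt5) trims leukotriene C4 to leukotriene D4, and the dipeptidase Dpep2 trims D4 to E4. The other branch begins with the cyclooxygenases (Ptgs1, Ptgs2), which give the prostaglandins, and Hpgd inactivates prostaglandins by oxidation. Myeloid cells are a main source of leukotrienes.

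Of the 9 measured genes, the pair that trims the peptide part of cysteinyl leukotrienes fell with DB2313. Dpep2 was 1.81-fold lower and Ggt5 1.60-fold lower. None rose, and the other 7 did not pass an adjusted p of 0.05 in limma. Over all 22180 genes tested, 1.81% passed in either direction. The median log2 difference (DB2313 minus vehicle) was -0.09 over the 9 genes, with 3 above 0 and 6 below, against -0.002 over all genes. At an unadjusted p under 0.05 in limma, which 12.7% of all genes reached, 1 of the 9 was higher and 4 were lower. These genes were chosen with earlier results known. The DB2313 and vehicle arrays did not overlap for 4 of the 9 genes, 1 higher and 3 lower, and for 19.3% of all genes.

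All signals are on the log2 scale. Probe sets differ in brightness for reasons other than transcript amount, so differences were tested within a gene, and no member's level was set against another's. The 0.25 quantile of gene means was 3.89 and the median 5.17. Because each culture was measured as a whole, fewer cells making a transcript and less of it per cell cannot be told apart.

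PU.1 and other ETS factors bind sites with the core GGAA. Windows of 300 bases, from 250 before to 50 after an annotated start, were read from RefSeq (GRCm38.p6) and matched 7 of the 10 genes with 8 windows. Dpep2, Ggt5 and Alox5ap had no entry. The 250 bases before the start are printed for the genes that open and close the route to leukotriene B4, Alox5 (chr6:116461179-116461428, minus strand) and Lta4h (chr10:93453146-93453395, plus strand). They show how GGAA lies in these windows, with GGAA, or TTCC where it is on the opposite strand, in capitals, written 5′ to 3′.
Alox5: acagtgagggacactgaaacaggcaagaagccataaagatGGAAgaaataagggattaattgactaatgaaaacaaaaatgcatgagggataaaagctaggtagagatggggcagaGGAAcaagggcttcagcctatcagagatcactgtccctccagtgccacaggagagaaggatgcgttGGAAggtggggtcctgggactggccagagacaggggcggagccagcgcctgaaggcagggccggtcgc
Lta4h: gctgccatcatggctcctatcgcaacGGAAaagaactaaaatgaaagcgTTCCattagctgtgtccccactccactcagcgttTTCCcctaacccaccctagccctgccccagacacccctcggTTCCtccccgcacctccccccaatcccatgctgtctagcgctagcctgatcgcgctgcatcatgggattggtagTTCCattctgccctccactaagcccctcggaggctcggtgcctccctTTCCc

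The printed Alox5 stretch holds 3 copies of GGAA, all on the strand shown, and the Lta4h stretch holds 6, of which most are on the opposite strand. GGAA is common, with a copy on either strand in 96.0% of the 32851 windows of the table and a median of 3 per window. In the full windows the counts were 3 for Alox5, 7 for Lta4h, 8 for Ltc4s, 6 for Ptgs2, 7 for Hpgd, and 2 in each of the Pla2g4a windows and that of Ptgs1. The longer form GAGGAA, which contains GGAA, occurred once in the windows of Alox5, Lta4h, Ltc4s, Ptgs1, Ptgs2 and Hpgd and in neither Pla2g4a window, and 28.3% of all windows hold it. AGGAAGT, which overlaps both, was in the Ltc4s and Ptgs1 windows and in 1 of those of Pla2g4a (9.4% of all windows). The GC box GGGCGG was found in the windows of Alox5, Ptgs2 and Hpgd (35.7% of all windows). TATAAA was found in the Hpgd window and 1 Pla2g4a window (13.6%). CCAAT was found in the Lta4h window and 1 Pla2g4a window (37.4%). A match is a string of letters and not evidence of binding, and no binding data were used here.

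The release step did not differ detectably. Pla2g4a had signals of 8.55, 8.54 and 8.42 in vehicle replicates 1 to 3 and 8.51, 8.63 and 8.58 with DB2313. The groups overlapped, and the log2 difference was 0.07 (SE 0.069, interval -0.09 to 0.23, adjusted p = 0.748), or 0.03 to 0.10 in the 6 fits that omit an array. Intervals here and below are 95% intervals of the log2 difference.

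Alox5, whose product starts the leukotriene branch, lay below the median of gene means. Its brighter row gave 4.55, 4.97 and 4.93 in vehicle and 4.61, 4.51 and 4.44 with DB2313. Vehicle replicate 1 was as low as the treated arrays, so the groups overlapped, while the other vehicle arrays were higher than every treated array. The log2 difference of -0.30 (interval -0.57 to -0.03) did not pass (adjusted p = 0.347). Its other row read 4.64, 4.55 and 4.67 in vehicle and 4.57, 4.52 and 4.58 with DB2313, a log2 difference of -0.06. In that row vehicle replicates 1 and 3 were above every treated array, but vehicle replicate 2 was not. The lowest vehicle array was thus not the same in both rows. Without vehicle replicate 1 the brighter row had a log2 difference of -0.43 (adjusted p = 0.0866), and without vehicle replicate 2 it had -0.22 (adjusted p = 0.553).

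Alox5ap, the partner that presents arachidonic acid to 5-lipoxygenase, had a bright main row. Signals were 10.21, 10.39 and 10.40 in vehicle and 10.18, 10.30 and 10.28 with DB2313. The ranges overlapped, and the log2 difference was -0.09 (interval -0.26 to 0.09, adjusted p = 0.717), or -0.15 to -0.05 in the 6 fits that omit an array. The other row was dimmer, at 6.41 ± 0.03 in vehicle and 6.24 ± 0.19 with DB2313 (SD, n = 3). Its lower treated mean came mainly from DB2313 replicate 1, at 6.03 against 6.39 and 6.31. The log2 difference of that row was -0.17 (interval -0.39 to 0.06).

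Lta4h, the hydrolase that makes leukotriene B4, was the gene of the 9 with the highest log2 difference. It read 10.13, 10.13 and 10.06 in vehicle and 10.32, 10.40 and 10.43 with DB2313. Every treated array lay above every vehicle array. The log2 difference of 0.28 (SE 0.062, interval 0.13 to 0.42) did not pass (adjusted p = 0.0899). It passed when genes below the median signal were left out (adjusted p = 0.0198), after 32 was added to the linear signals (0.0125) and with a trended and robust prior (0.0018). In the 6 fits that omit an array the value ran from 0.25 to 0.31 and did not pass (adjusted p 0.157 to 0.274).

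Ltc4s, which makes the first cysteinyl leukotriene, lay near the median of gene means. Signals were 5.13, 5.42 and 5.27 in vehicle and 4.93, 5.31 and 5.43 with DB2313. The treated arrays spanned the whole vehicle range. The log2 difference was -0.05 (interval -0.37 to 0.27, adjusted p = 0.923), wide enough that a fall of the size seen for Alox5 is not outside it.

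Ggt5, the transferase that removes glutamate from leukotriene C4, fell. It read 5.72, 5.38 and 5.46 in vehicle and 4.93, 4.76 and 4.84 with DB2313. No treated array reached the lowest vehicle array, and vehicle replicate 1 was the highest of the 6. The log2 difference was -0.68 (SE 0.099, interval -0.91 to -0.45, adjusted p = 0.0186). It had a single row, near the median of gene means, and with an offset of 32, which damps dim genes, the log2 difference was -0.36 (adjusted p = 0.0165). The call was lost without vehicle replicate 3 (adjusted p = 0.0579), DB2313 replicate 1 (0.0572), DB2313 replicate 2 (0.0805) or DB2313 replicate 3 (0.0823), and held without vehicle replicate 1 (0.0444) or 2 (0.0344).

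Dpep2, the dipeptidase of the next step, fell in both of its rows. The brighter row gave 9.83, 9.90 and 9.85 in vehicle and 9.01, 9.01 and 8.98 with DB2313. The spread within either group was far smaller than the gap between them. The log2 difference was -0.86 (SE 0.057, interval -0.99 to -0.73, adjusted p = 0.000829). By p-value Dpep2 ranked 17 of the 22180 genes, and by size it was the 32nd strongest fall among the 175 genes that fell. The call held in each of the 6 fits on 5 arrays (adjusted p 0.00666 to 0.00885).

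The dimmer Dpep2 row read 8.80, 8.79 and 8.55 in vehicle and 7.30, 7.54 and 7.22 with DB2313. Again no treated array came near the vehicle arrays. Its log2 difference was -1.36 (SE 0.106, interval -1.61 to -1.12, adjusted p = 0.00155 over all rows with 1 symbol). The gap between the brighter and the dimmer row was 1.03, 1.11 and 1.30 in vehicle and 1.71, 1.48 and 1.76 with DB2313. It was wider in every treated array, by 0.50 on average (2-sided exact permutation test, p = 0.1, the smallest p that 3 against 3 arrays allow). For the rows of Alox5 and Alox5ap the same comparison gave -0.24 (exact p = 0.3) and 0.08 (exact p = 0.5). Which exons each row covers was not analysed here.

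**Figure D1:**
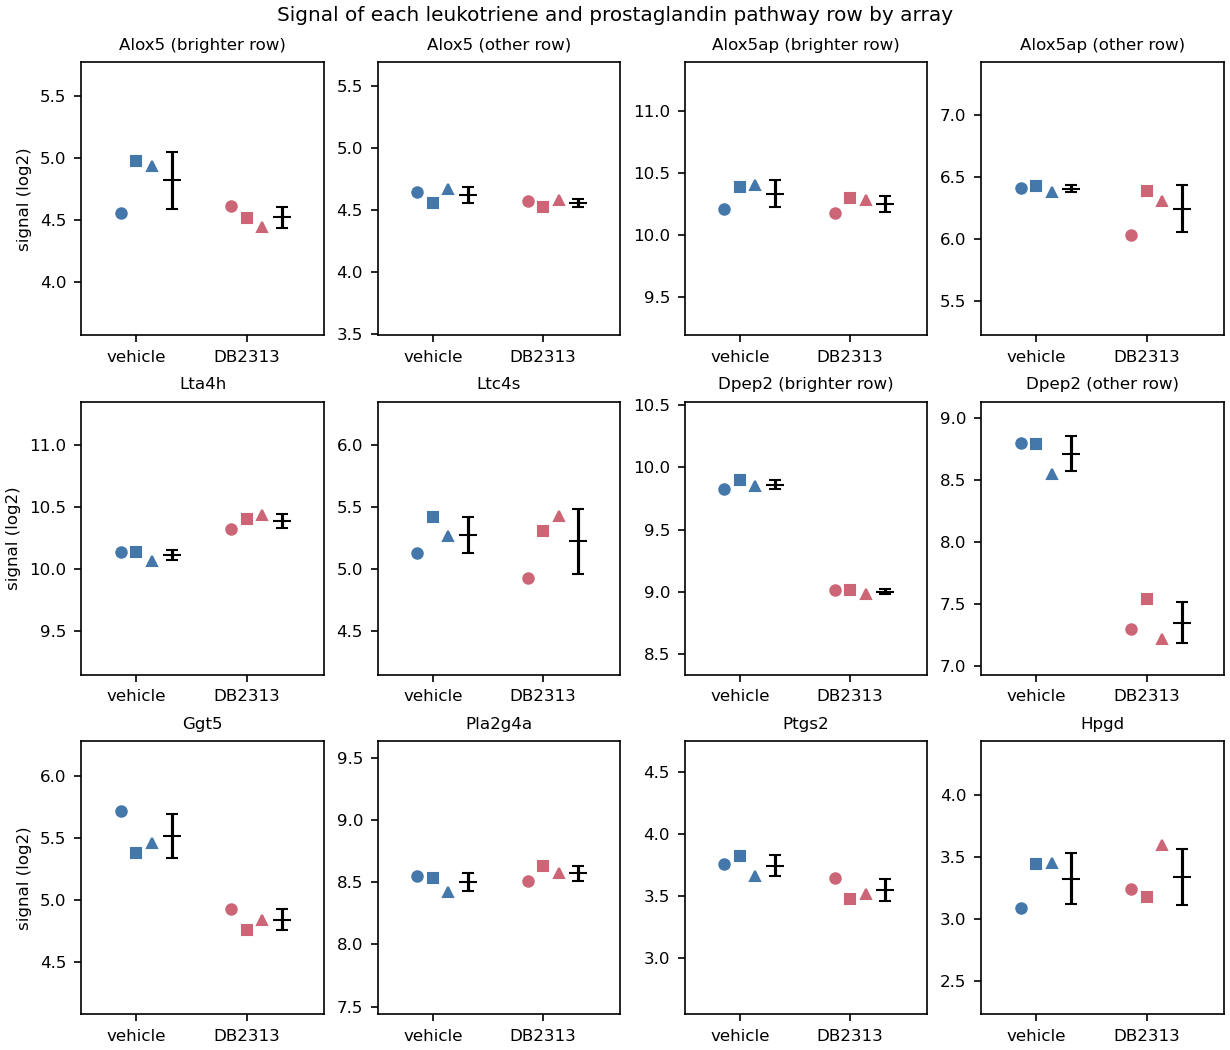
Log2 signal (vertical axis, same span of 2.2 in every panel) in the 3 vehicle arrays (blue) and 3 DB2313 arrays (red) for each of the 12 rows; circle, square and triangle are replicates 1, 2 and 3, and the black bar is the mean ± SD. Both Dpep2 rows, Ggt5 and, by a narrow gap, Ptgs2 are lower in every DB2313 array. Lta4h is higher in every one, and the ranges of Ltc4s, Pla2g4a and Hpgd overlap.

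In the prostaglandin branch, Ptgs2 and Hpgd both lay below the 0.25 quantile of gene means. Ptgs2, the inducible cyclooxygenase, read 3.76, 3.82 and 3.66 in vehicle and 3.65, 3.48 and 3.52 with DB2313. The groups were separated by the narrow gap between vehicle replicate 3 and DB2313 replicate 1. The log2 difference of -0.20 (interval -0.37 to -0.02) did not pass (adjusted p = 0.328) and shrank to -0.05 with an offset of 32. Hpgd, the prostaglandin dehydrogenase, read 3.09, 3.44 and 3.45 in vehicle and 3.24, 3.18 and 3.60 with DB2313. These ranges overlapped, with a log2 difference of 0.01 (interval -0.32 to 0.34, adjusted p = 0.986). At such signals a change in either transcript may not be visible on these arrays, since background was not measured.

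**Figure D2:**
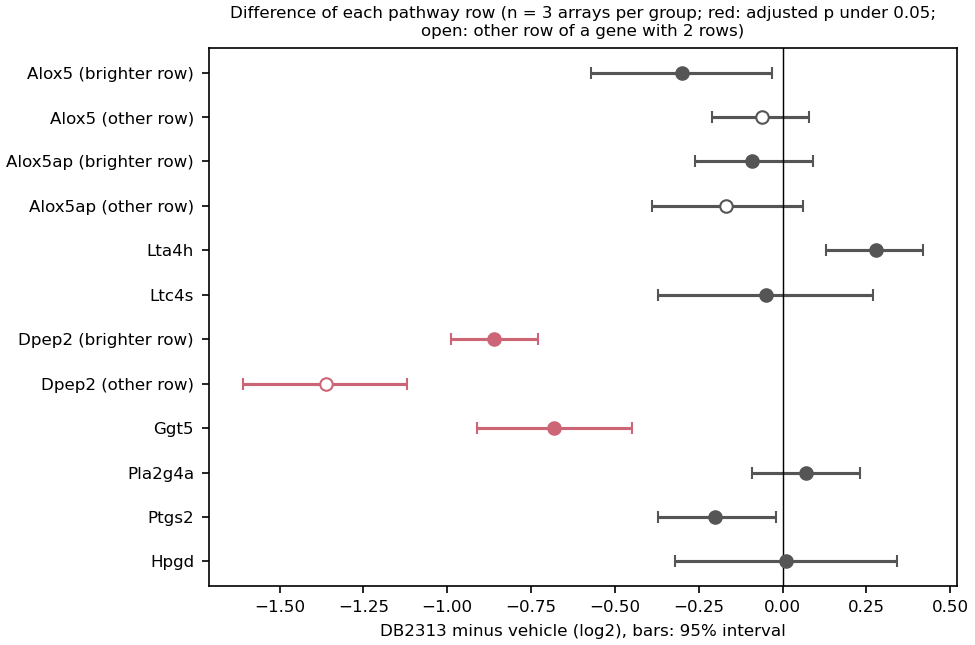
DB2313 minus vehicle on the log2 scale (horizontal axis) with its 95% interval for each row; filled points are the rows followed, open points the other row of Alox5, Alox5ap and Dpep2, and red marks an adjusted p under 0.05. Both Dpep2 rows (-0.86 and -1.36) and Ggt5 (-0.68) lie below 0 and passed, while Lta4h (0.28) lies on the other side and did not pass. The intervals of Lta4h (0.13 to 0.42), the brighter Alox5 row (-0.57 to -0.03) and Ptgs2 (-0.37 to -0.02) also exclude 0, without an adjusted p under 0.05.

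Other enzymes that act on leukotrienes and related lipoxygenase products gave 1 call. Of 17 measured, 1 fell, none rose and 16 did not pass, with a median log2 difference of 0.02. At an unadjusted p under 0.05, which 12.7% of all genes reached, 3 were higher and 3 lower. Groups did not overlap for 5 of the 17, and for 19.3% of all genes. The gene that fell was Mgst2, a membrane glutathione transferase that can also make leukotriene C4. Its signals were 9.14, 9.14 and 9.07 in vehicle and 8.72, 8.79 and 8.74 with DB2313, with no overlap. The log2 difference was -0.36 (SE 0.060, adjusted p = 0.0284), and no fit that omits an array kept the call (adjusted p 0.0696 to 0.12). Of the related dipeptidases, Dpep1 had a log2 difference of -0.23 (adjusted p = 0.335) and Dpep3 -0.42 (adjusted p = 0.0808). Among those with values above 0, Ptgr1, which inactivates leukotriene B4, had 0.34 (adjusted p = 0.0776), the lipoxygenase gene Alox8 0.31 (adjusted p = 0.0574) and the glutathione transferase gene Mgst3 0.31 (adjusted p = 0.1). These 5 genes were named after their values were seen.

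Ptgs2 and Hpgd aside, 13 prostaglandin enzymes were measured and none passed. These synthases, reductases and related genes had log2 differences from -0.15 to 0.23, and 1 had an unadjusted p under 0.05 in limma (12.7% of all genes). The smallest p values were those of Cbr2, a carbonyl reductase (0.23, adjusted p = 0.378), and Tbxas1, thromboxane synthase (-0.13, adjusted p = 0.604).

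The receptors for these lipids gave no call either. None of 13 passed in limma, none had an unadjusted p under 0.05, and the median log2 difference was -0.06. Ltb4r1, the high-affinity receptor of leukotriene B4, read 4.97, 5.12 and 5.13 in vehicle and 4.89, 5.08 and 5.04 with DB2313. These ranges overlapped, with a log2 difference of -0.07 (interval -0.25 to 0.11, adjusted p = 0.789). Cysltr1, a receptor of leukotriene D4, lay below the 0.25 quantile of gene means, at 3.07 in vehicle and 2.92 with DB2313 (adjusted p = 0.507). The smallest p values were those of Fpr2, the lipoxin receptor (-0.19, adjusted p = 0.403), and Ptger2, a prostaglandin E2 receptor (-0.17, adjusted p = 0.453).

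Among 10 measured genes listed as transporters and partners of 5-lipoxygenase, 1 rose, none fell and 9 did not pass. The gene that rose, Anxa1, encodes annexin A1, a protein known to restrain phospholipase A2. Anxa1 was on this list but is not a transporter or a partner of 5-lipoxygenase. It read 8.70, 8.49 and 8.44 in vehicle and 9.22, 9.10 and 9.19 with DB2313, so every treated array was higher. The log2 difference was 0.63 (SE 0.083, adjusted p = 0.0123), and the call was lost without vehicle replicate 2 (adjusted p = 0.0567), DB2313 replicate 1 (0.0616) or DB2313 replicate 3 (0.0636). Named after its values were seen, Abcc1, the exporter of leukotriene C4, had a log2 difference of -0.16 (adjusted p = 0.317). Cotl1, a protein that binds 5-lipoxygenase, had -0.34 (adjusted p = 0.134) and was also named after its values were seen.

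The supply of arachidonic acid was covered by a pair of lists. None of 30 measured genes of its release and return to phospholipid passed in limma, with 5 at an unadjusted p under 0.05, 2 higher and 3 lower, against 12.7% of all genes. The smallest p values were those of Mgll, monoacylglycerol lipase (-0.30, adjusted p = 0.17), and Pla2g2f, a secreted phospholipase (-0.23, adjusted p = 0.213). Of 6 desaturases and elongases, 1 rose and none fell, with a median log2 difference of 0.20. An unadjusted p under 0.05 was reached by 4, all higher, and by 12.7% of all genes in either direction. Of these, Fads1 (0.18, adjusted p = 0.308), Fads2 (0.44, 0.252) and Elovl5 (0.21, 0.172) did not pass and were named after their values were seen. The gene that rose was Elovl6, which lengthens saturated and monounsaturated fatty acids and is not an enzyme of arachidonic acid synthesis. It read 5.53, 5.66 and 5.41 in vehicle and 6.21, 6.11 and 6.21 with DB2313, with no overlap. The log2 difference was 0.65 (SE 0.080, adjusted p = 0.00991), and the call was lost without vehicle replicate 1 (adjusted p = 0.0532), DB2313 replicate 1 (0.0529) or DB2313 replicate 3 (0.0539). With an offset of 32 it was 0.42.

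**Figure D3:**
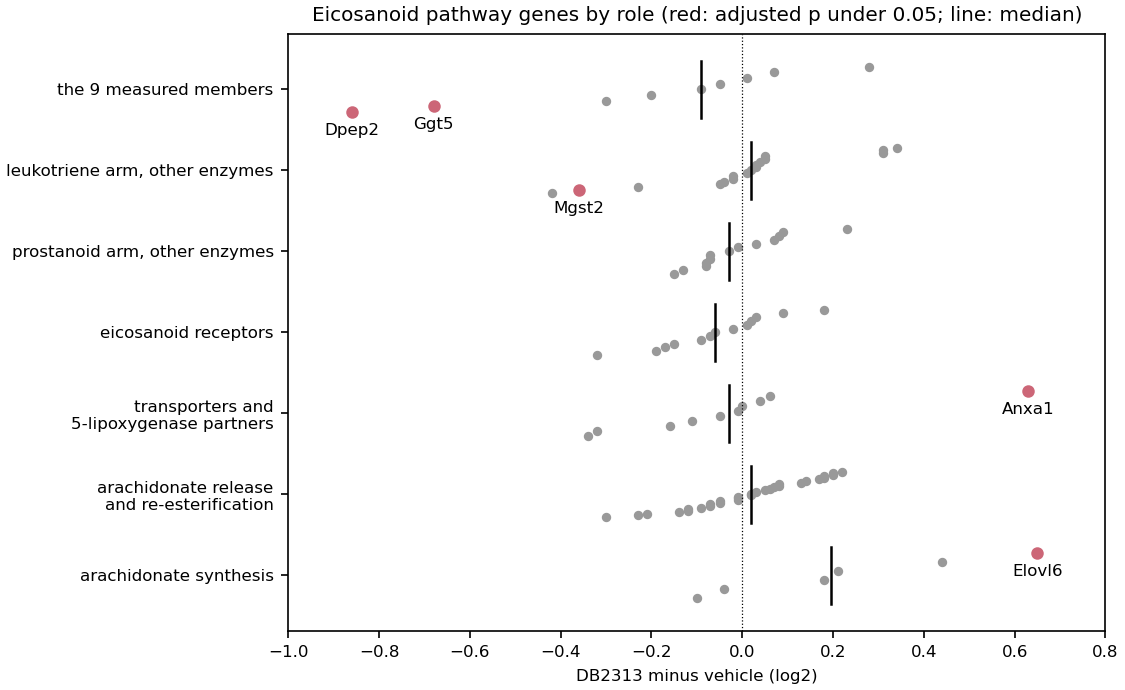
DB2313 minus vehicle on the log2 scale (horizontal axis) for the 9 measured genes and the 6 other pathway lists; each point is a gene, the vertical line is the list's median, the vertical offset only separates points, and red marks an adjusted p under 0.05 over all genes. Dpep2, Ggt5 and Mgst2 are the genes that fell, Anxa1 and Elovl6 those that rose, and medians run from -0.09 to 0.20.

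The cells were checked against marker genes, whose signals place them only roughly, since probes differ. Of 12 early myeloid genes, 10 lay above the median of gene means and 2 below it, 1 fell (Spi1) and 11 did not pass. Elane, Prtn3 and Ctsg had vehicle signals of 13.05, 12.46 and 12.51, near the top of the scale (13.22), Cebpe read 5.72 and the progenitor marker Cd34 4.59. Ptprc, a pan-leukocyte gene, read 3.32, so a low signal on this array does not show that a transcript is absent. Several other cell types also make these enzymes. The 9 measured mast cell markers averaged 3.21 to 3.28 in the vehicle arrays and 3.24 to 3.28 with DB2313, with 8 below the 0.25 quantile. The 7 eosinophil markers averaged 3.98 to 4.02 and 3.91 to 4.04, the 7 basophil markers 4.39 to 4.51 and 4.44 to 4.51, and the 7 megakaryocyte and platelet markers 4.67 to 4.81 and 4.58 to 4.66. The 11 macrophage markers averaged 4.35 to 4.40 and 4.33 to 4.36. None of these 5 lists held a gene past the threshold in limma, and 1 basophil marker and 2 of the platelet list had an unadjusted p under 0.05, against 12.7% of all genes. Of 11 markers of mature neutrophils, S100a8 fell (log2 difference -0.63, adjusted p = 0.0333) and the other 10 did not pass, with a list median of 0.02 and 7 of 11 above 0. That list averaged 5.29 to 5.36 in vehicle and 5.26 to 5.28 with DB2313. Spi1 itself was 1.29-fold lower (adjusted p = 0.0342). Whether the calls of Spi1 and S100a8 hold with an array omitted or under other processing was not tested. The part of S100a8-expressing cells or of Spi1 in the falls of Dpep2 and Ggt5 was not tested.

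**Figure D4:**
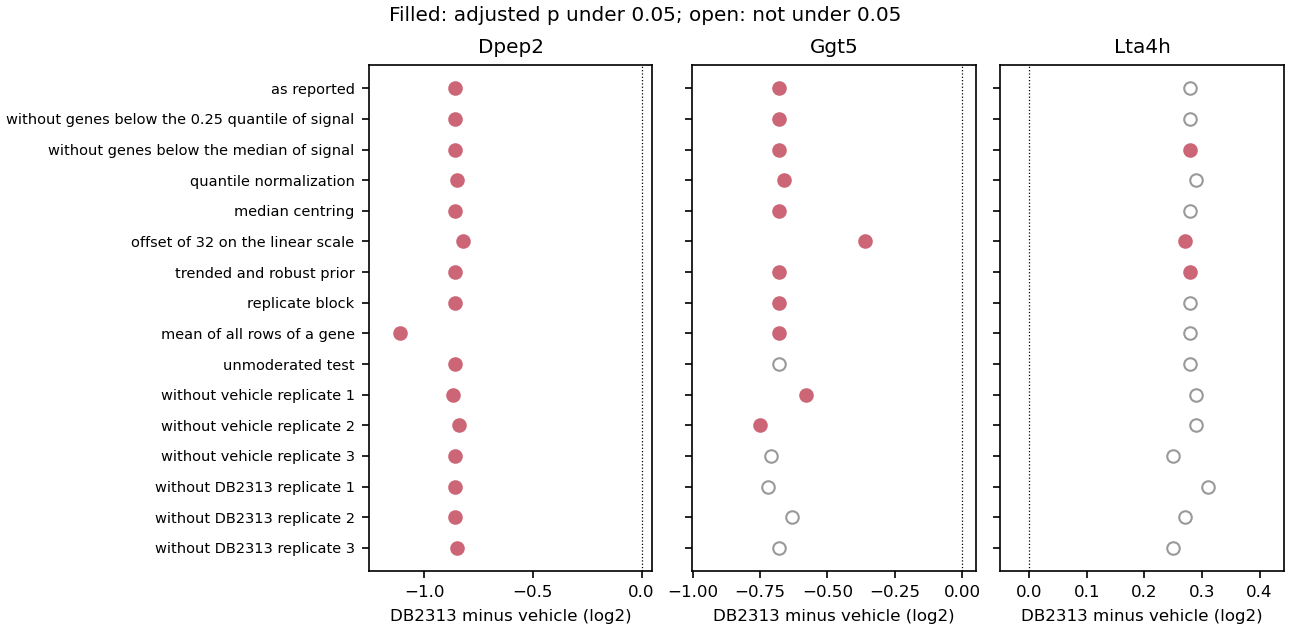
DB2313 minus vehicle on the log2 scale (horizontal axis, a separate range in each panel) for Dpep2, Ggt5 and Lta4h under each processing alternative (vertical axis); filled points have an adjusted p under 0.05 and open points do not. Dpep2 is filled throughout, Ggt5 is open in the unmoderated test and when 4 of the 6 arrays are left out, and Lta4h is filled in 3 settings.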

How the data were processed

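RNA from 6 samples was hybridised to Affymetrix arrays. The authors used Affymetrix Expression Console, per the submitters' processing notes. For background correction, summarisation and array normalization the method is not given in the sources used here. Deposited values were read as log2 signals from their range, 1.67 to 13.22. Nearly equal array medians (5.15 to 5.21 over the genes tested) point to normalization before deposit. Of 41345 rows, 23521 carried 1 symbol in the platform annotation, and the brightest row per gene left 22180 genes. DB2313 was compared with vehicle in limma 3.58.1 (R 4.3.3, lmFit and eBayes, 2-sided), with Benjamini-Hochberg adjustment over all genes at 0.05. The script was tested on simulated data. The number of arrays limits the precision.

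The members and lists were chosen with earlier results of these data known. All members were named. From each other pathway list, genes past the threshold were named or, with none, the 2 with the smallest p, and Ltb4r1 and Cysltr1 in any case. Further pathway genes are said to be named after their values were seen, as were the marker genes named, and the rule did not cover marker lists. No genes of like pattern were sought. Other rows were fitted over all rows with 1 symbol.
Alternatives were filters on dim genes (0.25 quantile, median), quantile normalization, median centring, an offset of 32, a replicate block, a trended and robust prior, averaged rows, an unmoderated test and each array omitted in turn.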

Additional observations from a re-analysis of the deposited data

How the results depend on the processing

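Dpep2 kept its direction and its call under all 15 alternatives run (log2 difference -1.11 to -0.82, the former as the mean of its rows). Ggt5 kept its direction but had an adjusted p of 0.141 in the unmoderated test. The number of the 9 genes past the threshold was 2, 1 in the unmoderated test, 3 in the settings where Lta4h passed, and 1 to 2 with 1 array left out. The 401 genes past the threshold over the whole table became 799 without genes below the median signal, 830 with the offset of 32, 920 with a trended and robust prior, 70 in the unmoderated test and 136 to 187 with 1 array left out. Ltc4s had log2 differences from -0.16 to 0.10 and Hpgd from -0.12 to 0.09 with 1 array left out, crossing 0 below any call. With the replicate block, 190 genes passed, Dpep2 (adjusted p = 0.015) and Ggt5 (0.0268) among them, and Mgst2 (0.0998) and Elovl6 (0.056) did not. Samples with the same number did not deviate together over all genes (r = 0.02, 0.08 and 0.01), and other pairs gave -0.07 to 0.05. A correlation over all genes cannot exclude a shared culture or day that acts on some genes. In the unmoderated test Mgst2 (0.0621), Anxa1 (0.104) and Elovl6 (0.0901) did not pass either. Why these calls changed was not tested. Dim signals, as for Ptgs2 and Hpgd, limit what could be detected.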

Other observations

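The measured neighbours of the genes that fell were read in RefSeq order after the values were seen. Next to Dpep2 lies its relative Dpep3, with a log2 difference of -0.42 (limma adjusted p = 0.0808) and no overlap between the groups. On the other side, Ddx28, an RNA helicase gene, had -0.14 and Dus2, encoding a dihydrouridine synthase, -0.22, also without overlap (adjusted p = 0.395 and 0.158). Of the 3 measured genes on each side of Dpep2, none passed, 5 lay below 0 and Lcat lay above it (0.09). Over all 22180 genes, 19.3% had groups without overlap and 11281 lay below 0. Whether the neighbours of Dpep2 differ from other genes was not tested. Around Ggt5, whose close relative Ggt1 was not analysed here, the 6 neighbours had log2 differences from -0.06 (Snrpd3) to 0.15 (Susd2), and none passed.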
